A study of Mus musculus with 37 samples.

Results

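Cell cycle genes encode the proteins that commit a cell to divide, copy its DNA and separate the copies. The 45 genes described here were listed by name, and 44 of them were measured and tested among 15709 genes in 9 components of the developing mouse kidney. Ccnb1 had no probe set paired with its symbol in the annotation used and was not analysed here. By role, the list holds 4 G1 cyclins and their kinase (Ccnd1, Ccnd2, Ccnd3, Cdk4), 7 genes of the G1/S step and of licensing (Ccne1, Ccne2, Cdk2, E2f1, Cdc6, Cdt1, Gmnn), 7 of the replication fork (Mcm2 to Mcm7 and Pcna) and 4 of nucleotide supply (Rrm1, Rrm2, Tyms, Tk1). It continues with 8 G2/M drivers (Ccna2, Ccnb1, Ccnb2, Cdk1, Cdc25c, Foxm1, Plk1, Aurka), 12 mitosis genes (Aurkb, Birc5, Bub1, Bub1b, Mad2l1, Ttk, Cdc20, Kif11, Cenpa, Cenpe, Top2a, Mki67) and 3 kinase inhibitors (Cdkn1a, Cdkn1b, Cdkn2c).

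Each of 37 samples of wild-type CD-1 mice, an outbred stock, was hybridised to 1 array, and nothing else was manipulated in any group. Metanephric mesenchyme (8 arrays) and ureteric bud (4) were taken at E11.5, and renal vesicle (5) at E12.5. S-shaped body (4), renal corpuscle (4), proximal tubule (2, labelled early), ureteric tip (3), medullary collecting duct (3) and medullary interstitium (4) were taken at E15.5. Per the labels, a sample was about 50 laser-captured sections pooled from 5 kidneys of embryos of unknown sex. The titles of 4 mesenchyme arrays and of all 4 ureteric bud arrays name dissection or collagenase instead. Each sample therefore averages several animals and more than 1 cell type, and p-values measure the spread between such pools.

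The deposited values are signal intensities that the authors scaled to a common trimmed mean of 1500, and array medians lay between 127 and 334. All levels below are log2(signal + offset) after quantile normalisation, and differences are on that scale, which understates changes of weak genes. Tests are 2-sided, from limma with Benjamini-Hochberg adjustment over all genes. A difference is called, and the words rose and fell are used, where it was at least 1 in size with an adjusted p under 0.05. SE is the standard error of a difference, and ± is the SD over arrays.

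Most arrays carried the markers of their label, and 2 libraries went against theirs. Several other arrays also held markers of other components, some of which are given below. The library labelled S-shaped body 3 had a mean podocyte marker level of 14.1 and a renal vesicle marker level of 8.50, against 10.7 to 11.4 and 11.9 to 12.6 in the other S-shaped bodies. In the library labelled renal corpuscle 4 these levels were 10.9 and 12.52, against 13.5 to 14.7 and 8.69 to 9.55 in the other corpuscles. Both go against their labels, so comparisons that rest on them were also fitted without them. S-shaped body 3 was also higher than the other S-shaped bodies in proximal tubule markers (12.6 against 8.84 to 9.64), interstitium markers (14.2 against 11.4 to 11.6) and endothelium markers (11.9 against 9.75 to 10.3). Collecting duct markers averaged 10.4, 13.0 and 12.2 in the 3 medullary collecting duct arrays, against 9.42 to 10.4 in the tips. The proximal tubule arrays had proximal tubule markers of 14.7 and 13.6, and the second also had higher nephron progenitor markers (10.8 against 8.28). In bulk samples, fewer cells of a type and less RNA per cell cannot be told apart.

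The cell cycle turns on cyclins, which activate kinases in sequence. Cyclin D with Cdk4 starts the passage out of G1, which releases E2F factors to switch on replication genes. Later a complex that binds CHR elements, helped by NF-Y at CCAAT boxes, switches on the genes of mitosis. In the growing kidney, division is known to be frequent in nephron progenitors, in early nephron structures and at the tips of the branching ureteric tree, and it slows as tubules and glomeruli mature.

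The promoters of the members show these control letters, and 6 are printed because each holds matches of 1 or more of these classes. RefSeq promoter entries of GRCm38.p6, of 300 bases each (250 before to 50 after the gene's start), matched 36 of the 45 genes. Searches on both strands used TTTCCCGC, TTTGGCGC, TTTCGCGC and TTTGCCGC for E2F, TTTGAA for CHR and CCAAT for the CCAAT box. The 150 bases just before the start are printed 5′ to 3′ along the gene, all on the minus strand, with matches in capitals. Pcna (chr2:132253181-132253330), Mcm7 (chr5:138171884-138172033, the more upstream of 2 annotated starts), Mki67 (chr7:135716380-135716529) and Cdc20 (chr4:118437344-118437493) were the first by rule. Mcm6 (chr1:128359706-128359855) and Cdk1 (chr10:69352913-69353062) were chosen after the matches were seen. ATTGG is the CCAAT box on the other strand.
Pcna: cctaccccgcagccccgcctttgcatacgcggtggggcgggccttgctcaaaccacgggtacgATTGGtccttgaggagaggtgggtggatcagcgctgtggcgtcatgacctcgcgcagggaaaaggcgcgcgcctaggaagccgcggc
Mcm7: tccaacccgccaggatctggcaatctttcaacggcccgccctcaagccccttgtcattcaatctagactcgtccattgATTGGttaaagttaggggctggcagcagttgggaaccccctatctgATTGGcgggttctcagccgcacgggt
Mki67: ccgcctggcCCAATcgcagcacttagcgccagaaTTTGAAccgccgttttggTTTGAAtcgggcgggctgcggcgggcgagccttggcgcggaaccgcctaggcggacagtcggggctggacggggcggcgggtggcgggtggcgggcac
Cdc20: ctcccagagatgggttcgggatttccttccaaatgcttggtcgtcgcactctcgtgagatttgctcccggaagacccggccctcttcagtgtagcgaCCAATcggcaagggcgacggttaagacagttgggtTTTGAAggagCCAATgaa
Mcm6: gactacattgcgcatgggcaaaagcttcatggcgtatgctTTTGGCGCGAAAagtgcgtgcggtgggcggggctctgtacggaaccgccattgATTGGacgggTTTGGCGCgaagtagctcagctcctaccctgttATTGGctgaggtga
Cdk1: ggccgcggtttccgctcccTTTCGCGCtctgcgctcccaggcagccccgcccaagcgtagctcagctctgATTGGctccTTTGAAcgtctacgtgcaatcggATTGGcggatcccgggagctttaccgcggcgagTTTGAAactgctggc
The Mki67 window held 2 CHR matches and 1 CCAAT box, and that of Cdc20 held 1 CHR match and 2 CCAAT boxes. The windows of Pcna and Mcm7 held only CCAAT boxes, while that of Mcm6 held 3 E2F matches, of which 2 overlap, and 2 CCAAT boxes. Cdk1 held all 3 classes, with 1 E2F match, 2 CHR matches and 2 CCAAT boxes.

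Over the whole entries, CHR matches lay in 7 of 11 mitosis genes (63.6%) and in 4 of 5 G2/M drivers (80%), against 20.2% of all promoters of this length. E2F matches lay in 4 of 6 fork genes (66.7%), in 3 of 5 G1/S genes (60%) and in no mitosis gene, against 2.6% of all promoters. CCAAT boxes lay in 72.2% of the matched members and in 41.1% of all promoters. A match is a string of letters, not a measured binding site.

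**Figure D1:**
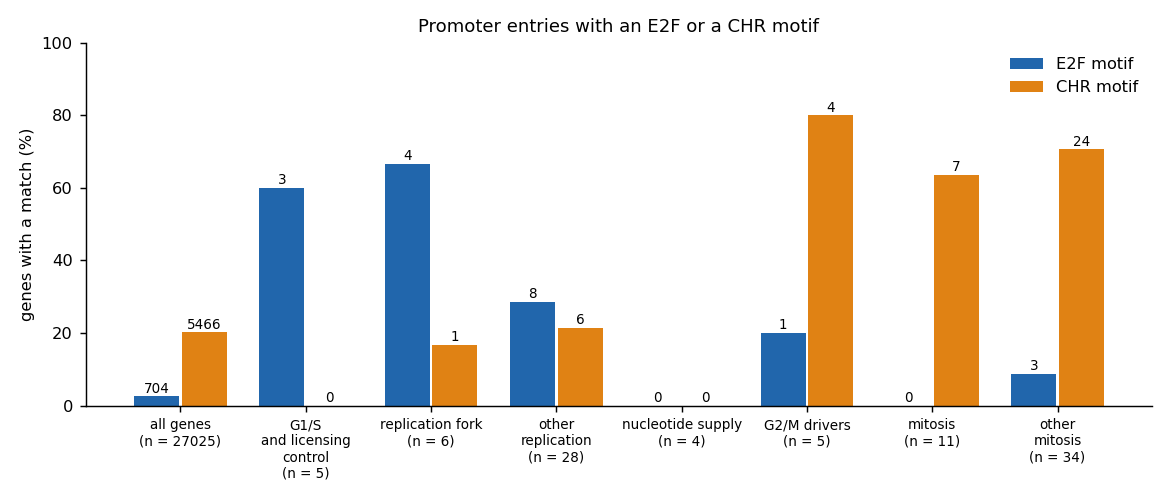
Share of promoters (percent, y axis) that hold an E2F or a CHR match, by role of the cell cycle genes, with all promoters of the same length for comparison and the number of genes over each bar. E2F matches stand highest in the replication fork genes (66.7%), and CHR matches in the G2/M drivers (80%) and mitosis genes (63.6%).

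The mean level of the 41 members other than inhibitors was highest in the early components and lowest in proximal tubule. As the mean deviation of each gene from its average over components, it was 0.53 ± 0.20 in renal vesicle (n = 5), 0.52 ± 0.09 in ureteric bud (n = 4) and 0.38 ± 0.14 in mesenchyme (n = 8). It was 0.23 ± 0.10 in ureteric tip (n = 3), 0.19 ± 0.71 in S-shaped body (n = 4), -0.08 ± 0.32 in medullary interstitium (n = 4) and -0.21 ± 0.52 in renal corpuscle (n = 4). Medullary collecting duct stood at -0.60 ± 0.64 (n = 3) and proximal tubule at -0.97 ± 1.17 (n = 2). Neighbours in this order lie within each other's spread. Of the 41 genes, 16 had their highest component mean in renal vesicle and 14 in ureteric bud. The lowest mean was in proximal tubule for 24 and in collecting duct for 10.

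Single arrays set much of the spread among the E15.5 components. The S-shaped bodies stood at 0.31, 0.58, -0.83 and 0.72, and the low one is the library labelled 3, which was the lowest of the 4 for 37 of the 41 genes. The collecting ducts stood at 0.05, -1.24 and -0.61, where the first has the fewest collecting duct markers and was the highest of the 3 for 36 genes. The proximal tubules stood at -1.80 and -0.14, and the first was below the second for 36 genes. The corpuscles stood at -0.44, 0.14, -0.83 and 0.30, with the library labelled 4 the highest for 24 genes. Whether marker content set these differences was not tested. The tips, at 0.12, 0.27 and 0.30, and the ureteric buds, between 0.43 and 0.63, showed the least spread.

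**Figure D2:**
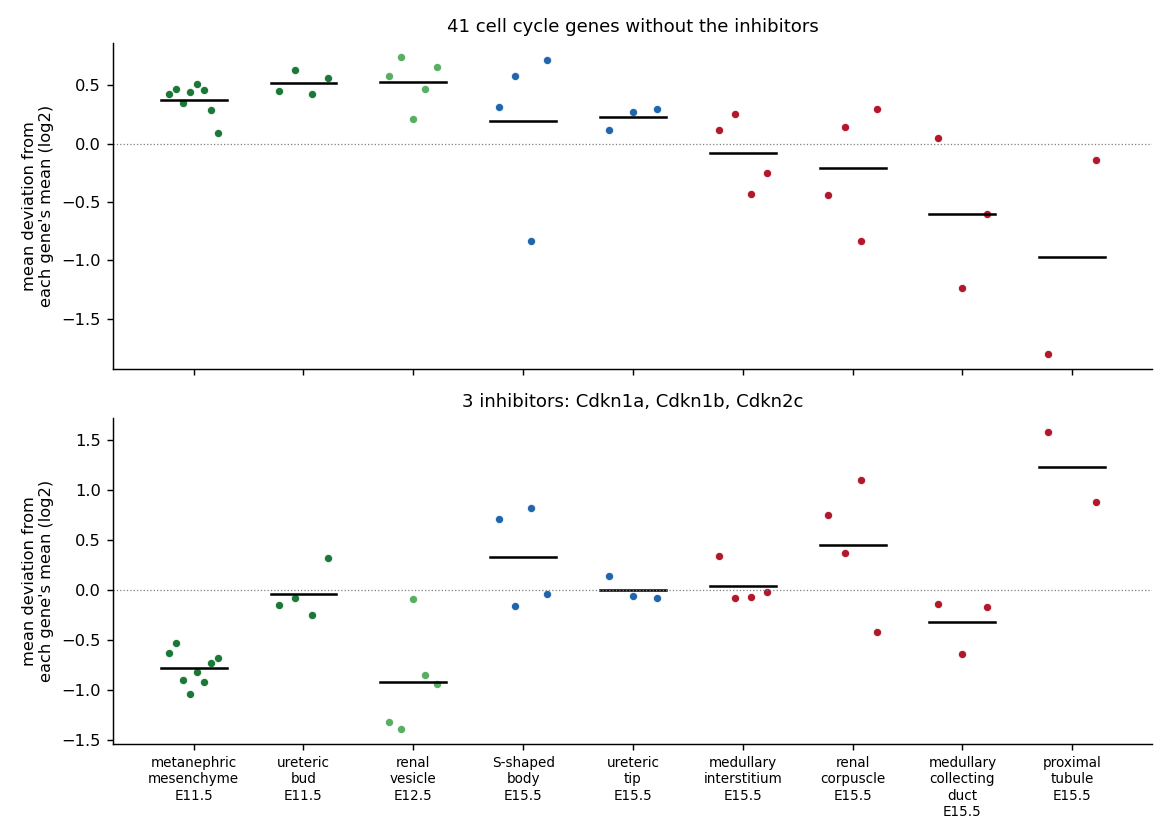
Mean log2 deviation of the 41 cell cycle genes other than inhibitors (y axis) in each array (points), by component (x axis), with the component mean as a line, above the same for the 3 inhibitors; colours mark E11.5, E12.5, the growing and the differentiated components of E15.5. In the upper panel, ureteric bud, renal vesicle and mesenchyme arrays all lie above 0, while collecting duct and proximal tubule arrays reach down to -1.24 and -1.80.

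By role, the mitosis genes spanned the widest range outside the tubule. Their mean deviation was 0.77 in renal vesicle, 0.75 in ureteric bud and 0.62 in mesenchyme, against -0.56 in renal corpuscle and -0.88 in collecting duct. The G1 cyclins and Cdk4 ran from -0.74 in proximal tubule to 0.32 in medullary interstitium, and mesenchyme, at -0.17, lay lower for this role than for any other except the inhibitors (-0.78). The fork genes ran from 0.55 in ureteric bud to -1.24 in proximal tubule. The inhibitors were highest in proximal tubule, at 1.23, and lowest in renal vesicle, at -0.92.

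**Figure D3:**
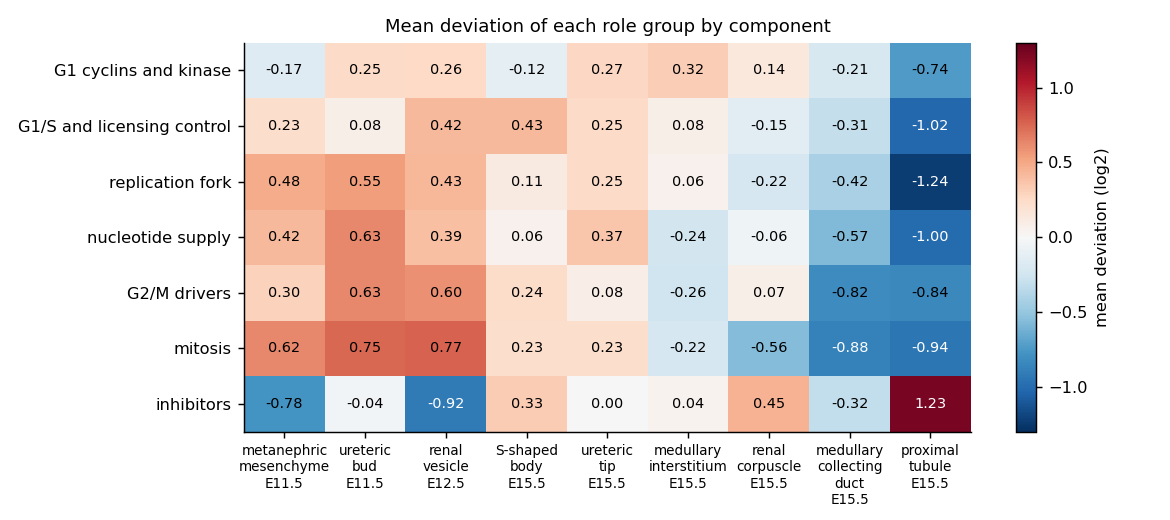
Mean log2 deviation of each role group (rows) in each component (columns), coloured from low to high. Mitosis genes run from 0.77 in renal vesicle to -0.94 in proximal tubule, and the inhibitors take their highest value, 1.23, in proximal tubule.

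The first comparison asked, within a single day, how ureteric tip and S-shaped body, where tubules grow and form, differed from renal corpuscle, proximal tubule, medullary collecting duct and medullary interstitium. Gmnn, Pcna and Mki67 rose, and no member fell. Gmnn, the inhibitor of repeated origin licensing, was 2.57-fold higher (log2 difference 1.36, SE 0.27, adjusted p = 0.00555). Pcna, the sliding clamp of DNA polymerases, was 2.24-fold higher (1.16, SE 0.19, adjusted p = 0.00112), and Mki67, the antigen of cycling cells, 2.23-fold higher (1.16, SE 0.22, adjusted p = 0.00495). Proximal tubule held the lowest Pcna, at 12.38 and 12.37, against 13.86 to 15.12 over corpuscle, duct and interstitium. For Gmnn it held 10.18 and 11.97, against 11.81 to 13.40 there. The comparison was not fitted without proximal tubule, so the part of the tubule in these differences was not tested.

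Of all genes, 0.796% were called higher and 0.821% lower in this comparison, against 3 and 0 of the 44 members. The difference was above 0 for 40 members, with a median of 0.67 against -0.04 over all genes. At an unadjusted p under 0.05 in limma, 25 members were higher and 1 lower. Just outside the thresholds lay Cdc6 (1.13, adjusted p = 0.0562), Top2a (1.10, adjusted p = 0.0567), Ccnd1 (1.06, adjusted p = 0.0572) and Rrm2, whose adjusted p of 0.0414 came with a difference of 0.60. Without the libraries labelled S-shaped body 3 and renal corpuscle 4, 14 members rose and none fell, against 2.77% and 3.13% of all genes. Left out singly, S-shaped body 3 gave 12 calls, proximal tubule 2 gave 13, collecting duct 1 or renal corpuscle 4 gave 6 and renal corpuscle 2 gave 5.

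The second comparison set mesenchyme, ureteric bud, renal vesicle and ureteric tip against the same 4 components of E15.5. Embryonic day therefore differs along with component, and the comparison shares arrays with the first. Collection differs too: all 4 bud arrays and 4 of the 8 mesenchyme arrays are titled dissection or collagenase, and no array of the differentiated components is. Here 18 members rose and Cdkn2c fell, against 6.75% of all genes called higher and 5.72% lower. The difference was above 0 for 38 of 44, with a median of 0.82 against 0.04 over all genes. Mitosis genes made up 8 of the 18: Bub1 (2.41, SE 0.42, adjusted p = 6.37e-05) and Mad2l1 (2.05, SE 0.39, adjusted p = 0.000178) of the spindle checkpoint, the spindle motor Kif11 (2.10, SE 0.48, adjusted p = 0.00137), and Cenpe, Top2a, Aurkb, Ttk and Mki67 between 1.04 and 1.29. The fork gave Pcna (1.47, SE 0.15, adjusted p = 1.09e-08), Mcm3 and Mcm5, and the G1/S step gave Cdc6 (1.38), Gmnn (1.22) and Ccne2 (1.13). Plk1 (1.46), Cdc25c (1.33) and Ccnb2 (1.10) were the G2/M drivers that rose, and Tyms, which makes thymidylate, rose by 1.49. Of the 4 G1 cyclins and kinase, none was called. Leaving out 1 array gave 12 to 24 calls in place of 19, the lowest without proximal tubule 1. Mcm5, at 1.00, lay on the size threshold, and its call was lost under 18 alternatives.

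**Figure D4:**
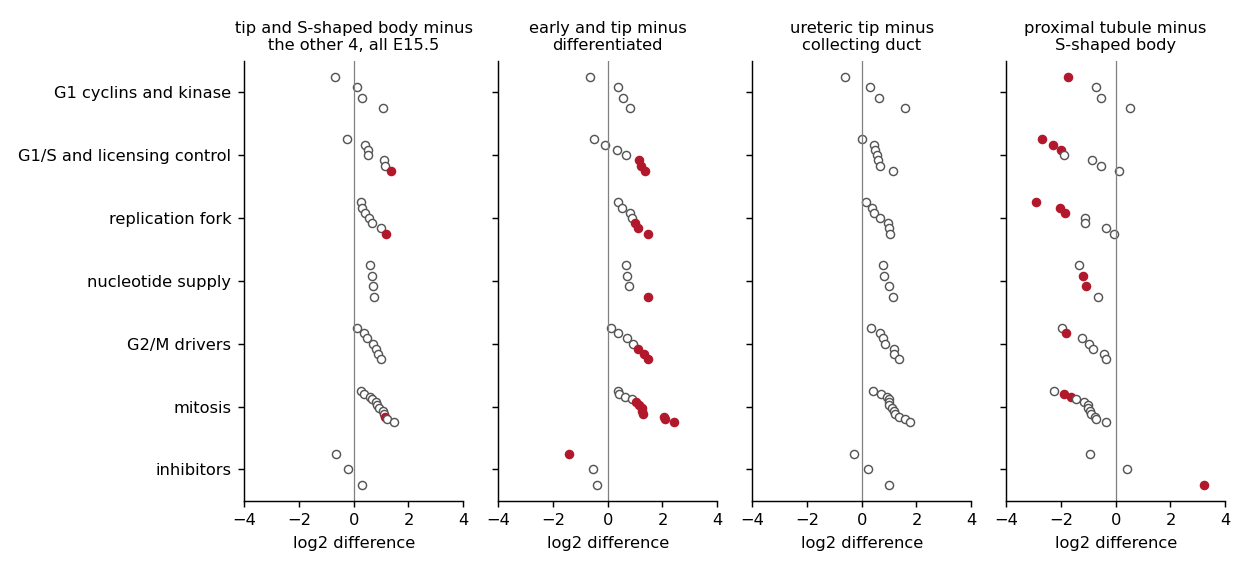
Log2 difference of each member (points, x axis) by role (y axis) in 4 comparisons, with called members filled in red. In the E15.5 comparison and in early components and tip against differentiated ones, 40 and 38 of 44 points lie to the right of 0. In proximal tubule against S-shaped body, 4 do.

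Within the ureteric tree, ureteric tip was set against medullary collecting duct, which is the older end of the same epithelium. No member was called by limma, against 0.121% of all genes higher and 0.236% lower, while 14 were higher and 0 lower at an unadjusted p under 0.05. The difference was above 0 for 42 of 44 members, with a median of 0.83 against -0.02 over all genes. The largest differences were Bub1 (1.77, SE 0.91, adjusted p = 0.894), Ccnd1 (1.60, SE 0.51, adjusted p = 0.293) and Mad2l1 (1.59). At each of 2 dates given in the titles, with 1 array of each component, 41 and 40 members were above 0, with medians of 1.498 and 0.92. Array weights, which lower the weight of arrays far from their group, gave 20 calls, but the share of all genes called under them was not counted. Leaving out collecting duct 1 or both libraries that go against their labels gave 1.

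Along the nephron, proximal tubule against S-shaped body gave the most members lower. The tubule is an absorbing epithelium, labelled here as early proximal tubule, and the S-shaped body is the folded stage before it. Here 12 members fell and Cdkn1a rose, against 4.27% of all genes lower and 5.64% higher. The median was -1.01 against 0.08 over all genes, with 4 of 44 above 0. Pcna was 7.49-fold lower (-2.91, SE 0.34, adjusted p = 6.49e-07), Gmnn differed by -2.68 (SE 0.48, adjusted p = 0.000242), Cdc6 by -2.27 and Mcm3 by -2.02. Cdk2, Cenpe, Mcm4, Cdk1, Ccnd1, Mki67, Rrm1 and Rrm2 fell by between 1.07 and 2.00. Cdkn1a, which encodes the kinase inhibitor p21, was 9.38-fold higher (3.23, SE 0.67, adjusted p = 0.00131).

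The 2 tubule arrays differed, and this comparison depends on them. Without proximal tubule 1 there were 3 calls, without proximal tubule 2 there were 26, and without S-shaped body 4 there were 7. Fitted to these 2 components alone there were 2, and with array weights 6. Without the libraries labelled S-shaped body 3 and renal corpuscle 4, 18 fell and 1 rose, against 5.78% and 6.68% of all genes. Cdkn1a then differed by 3.92 and Ccnd1 by -2.33. At the only date that both components share in their titles, with 1 array each, 9 of 44 were above 0, with a median of -0.68.

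Renal corpuscle, which holds podocytes and capillaries, against S-shaped body gave no call by limma, with 0.102% of all genes higher and 0.477% lower, while 2 members were higher and 8 lower at an unadjusted p under 0.05. The median was -0.32 against -0.04 over all genes, and all 12 mitosis genes were below 0 with a median of -0.77. This pair holds both libraries that go against their labels. Without them, 8 members fell and none rose, against 2.61% and 1.5% of all genes, with a median of -0.83: Mad2l1 (-3.26, adjusted p = 0.00392), Bub1 (-3.18, adjusted p = 0.00498), Top2a (-2.07), Cdc6, Bub1b, Ccnd1, Mki67 and Cdt1. Leaving out S-shaped body 3 alone gave 2 calls, and renal corpuscle 2 alone gave 3. Renal corpuscle 2 had higher nephron progenitor markers (11.3 against 7.46 to 8.54 in the other corpuscles) and ureteric epithelium markers (11.1 against 6.85 to 8.73), and their part in the result was not tested.

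Between early components few members were called. Ureteric bud against mesenchyme, at the same day, gave 2 higher and 0 lower, against 4.08% and 4.07% of all genes: Cdkn1a was 6.32-fold higher (2.66, SE 0.47, adjusted p = 0.000128) and Ccnd1 differed by 1.73 (SE 0.39, adjusted p = 0.00197). Those were also the members past an unadjusted p of 0.05. Collection differs in this pair, since all 4 bud arrays but only 4 of the 8 mesenchyme arrays are titled dissection or collagenase. Cdkn1a averaged 9.86 in those 4 mesenchyme arrays and 8.82 in the 3 titled as laser capture. For Ccnd1 these means were 12.99 and 13.31. Renal vesicle (E12.5) against mesenchyme (E11.5), where day differs along with component, gave 3 higher and 2 lower, against 3.87% and 7.98%. Ccnd1, Cdkn1b (1.43, adjusted p = 0.00293) and Gmnn (1.06, adjusted p = 0.02) rose, and Cdkn2c (-1.68, adjusted p = 0.00632) and Ccnd3 (-1.02, adjusted p = 0.0145) fell. The Ccnd3 call was lost under 10 alternatives. Without mesenchyme 8 or renal vesicle 4 there were 3 calls, and with only the mesenchyme arrays titled as laser capture there was 1. Erythroid markers averaged 10.2 to 12.4 in mesenchyme, against 8.15 to 9.33 in ureteric bud and 7.81 to 9.41 in renal vesicle. Ureteric epithelium markers were 11.6, 11.3, 9.37 and 10.1 in mesenchyme 1 to 4, and 7.47 to 7.79 in mesenchyme 5 to 8. In renal vesicle 2 and 3 they were 11.8 and 11.4, against 7.96 to 8.83 in the other vesicles. The part of these markers in the results was not tested.

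S-shaped body against renal vesicle gave 1 member higher and 0 lower, against 3.27% and 1.72% of all genes. S-shaped body was taken at E15.5 and renal vesicle at E12.5, so day and component cannot be told apart in this pair. Cdkn2c, which encodes the Cdk4 inhibitor p18, was 10.9-fold higher (3.45, SE 0.50, adjusted p = 2.72e-05), while the median of all members was -0.21 against -0.04. Without the libraries labelled S-shaped body 3 and renal corpuscle 4, Cdkn2c was again the member called (3.56), against 1.78% of all genes higher and 0.808% lower, and both medians were -0.02. Ureteric tip and ureteric bud lie 4 days apart. All 4 bud arrays, but no tip array, are titled dissection or collagenase, so day and collection cannot be told apart here. Tip against bud gave 0 higher and 1 lower, against 2.04% and 2.21%: Cdkn1a fell by 2.05 (SE 0.59, adjusted p = 0.0373). That call was lost when ureteric bud 2, 3 or 4 or any tip array was left out, leaving 0. The members' median was -0.23 and that of all genes -0.22.

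Medullary interstitium against mesenchyme gave 4 members higher and 2 lower, against 4.67% and 6.82% of all genes. Interstitium was taken at E15.5 and mesenchyme at E11.5, so day and component cannot be told apart in this pair. Of the 8 mesenchyme arrays, 4 are titled dissection or collagenase, and no interstitium array is. Cdkn2c (1.84, SE 0.46, adjusted p = 0.00585), Ccnd2 (1.27, adjusted p = 0.041), Cdkn1b (1.21, adjusted p = 0.0185) and Ccnd1 (1.13, adjusted p = 0.046) rose. The Ccnd1 call was lost under 16 alternatives, 10 of which left out 1 array, and the Ccnd2 call under 11, of which 8 did. The mitotic kinases Plk1 (-1.65, SE 0.46, adjusted p = 0.0145) and Aurkb (-1.37, adjusted p = 0.0272) fell. Without medullary interstitium 3 there was 1 call, without 4 there were 2, without medullary interstitium 1 or mesenchyme 5 there were 3, and with only laser-captured mesenchyme there was 1. Ureteric epithelium markers in the 4 interstitium arrays were 12.7, 11.3, 8.60 and 8.79, and their part in the result was not tested.

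Among the G1 genes, Ccnd1, the D cyclin that answers growth signals, was low in mesenchyme. It ran from 12.81 to 13.87 (median 13.16) over the 8 mesenchyme arrays and was 14.67, 14.80, 15.28 and 14.88 in ureteric bud. In renal vesicle it was 15.91, 15.65, 14.87, 15.79 and 15.80. No array of either overlapped mesenchyme. In S-shaped body Ccnd1 was 15.29, 15.83, 13.19 and 15.51, and in renal corpuscle it was 14.31, 14.34, 13.62 and 15.86. The low S-shaped body and the high corpuscle are the libraries that go against their labels. Tips held 14.58, 14.85 and 14.91, above the collecting ducts at 14.05, 12.002 and 13.49. Interstitium was 14.57, 14.16, 14.50 and 14.00, and the tubules 12.32 and 14.11, which are far apart.

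Cdk4, the kinase that D cyclins activate, varied little. It lay between 14.59 and 15.83 (median 15.39) in mesenchyme and was 15.33, 15.64, 15.51 and 15.499 in ureteric bud. Over renal vesicle it was 15.21, 14.93, 14.75, 15.24 and 15.08, and over S-shaped body 14.98, 15.23, 14.45 and 14.86. Tips were at 14.82, 15.15 and 15.16 and ducts at 14.78, 14.59 and 14.86. Ureteric bud lay above S-shaped body, tip and duct without overlap, but no difference of Cdk4 was called in any of the 10 comparisons. Corpuscles were at 14.69, 15.39, 14.57 and 15.32, interstitium at 15.01, 15.07, 14.63 and 14.58, and the tubules at 13.39 and 14.91, so that 1 tubule array was the lowest of all 37.

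Of the G1/S and licensing genes, Gmnn was highest in renal vesicle, ureteric tip and S-shaped body. It was 14.05, 14.63, 13.82, 14.59 and 14.23 in renal vesicle and 14.18, 14.65, 12.43 and 13.74 in S-shaped body. Tips had 14.23, 13.59 and 13.97. Mesenchyme lay between 12.52 and 13.86 (median 13.38) and ureteric bud at 13.33, 13.38, 13.22 and 13.65, so that 4 of 5 renal vesicles were above every array of both. Interstitium was 12.84, 13.37, 13.28 and 12.55, and corpuscle 13.33, 13.40, 12.48 and 12.92. The ducts were at 13.40, 11.81 and 13.20 and the tubules at 10.18 and 11.97. All tips lay above all 13 arrays of the 4 differentiated components, as did all S-shaped bodies other than the library labelled 3.

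Cdt1, which loads the Mcm helicase and is bound by geminin, the Gmnn product, moved less. It lay between 14.84 and 15.21 (median 15.10) in mesenchyme, and was 15.08, 15.07, 14.87, 15.23 and 15.22 in renal vesicle. In ureteric bud it was 14.80, 14.81, 14.42 and 14.89, in S-shaped body 15.26, 14.82, 14.26 and 14.66, and in tip 14.75, 14.61 and 15.18. Those groups overlap. The lowest values were in corpuscle, at 13.03, 14.39, 14.06 and 14.83, and in duct, at 14.96, 13.84 and 13.74. Tubules were at 14.32 and 14.12 and interstitium at 14.92, 14.47, 14.51 and 14.61. In the E15.5 comparison the difference was 0.52, and Cdt1 was not called. E2f1, the activator of this step, went the other way in that comparison, at -0.25, and was not called either.

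At the replication fork, Pcna set the tubules apart most clearly. Both were at 12.38 and 12.37, below every other array, of which the next lowest was a collecting duct at 13.86. Mesenchyme ran from 14.82 to 16.13 (median 15.82), and ureteric bud was 15.81, 15.99, 15.98 and 15.85. Renal vesicle was 15.62, 15.89, 14.55, 15.57 and 15.72. The early groups overlap. S-shaped body was 15.43, 15.00, 14.85 and 15.83 and tip 15.502, 15.24 and 14.91, against duct at 14.99, 13.86 and 14.76. Interstitium was 14.89, 15.12, 14.41 and 14.68, and corpuscle 14.75, 14.96, 14.00 and 14.92, so the ranges touch.

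Mcm7, a subunit of the helicase that unwinds DNA, was near 16 in the early components. It lay between 15.45 and 16.00 (median 15.85) in mesenchyme, at 15.92, 15.95, 15.54 and 15.90 in ureteric bud and at 15.85, 15.71, 16.04, 16.10 and 16.05 in renal vesicle. S-shaped body was 15.78, 15.74, 14.39 and 15.80, and tip 15.42, 15.69 and 15.78. Again the library labelled S-shaped body 3 is the low one. Duct was 15.80, 14.94 and 15.05, corpuscle 14.76, 15.33, 14.79 and 15.52, and interstitium 15.52, 15.16, 15.15 and 15.05. The tubules, at 12.88 and 15.70, differ more from each other than any other group did for this gene. The helicase subunits moved unequally in tubule against S-shaped body, where Mcm3 (-2.02) and Mcm4 (-1.84) fell, while Mcm2 (-0.37) and Mcm6 (-0.08) were not called.

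For nucleotide supply, Rrm2, the regulated subunit of ribonucleotide reductase, was highest in renal vesicle, at 16.17, 15.88, 16.03, 16.38 and 16.22. Mesenchyme ran from 15.32 to 15.69 (median 15.59) and ureteric bud was 15.53, 15.66, 15.82 and 15.56, both below all vesicles. S-shaped body was 15.55, 15.90, 15.08 and 15.81, and tip 15.94, 15.53 and 15.68. Duct was 15.58, 14.24 and 14.85 and tubule 13.80 and 15.24, which shows the same unequal arrays as the other genes. Interstitium was 15.36, 15.64, 15.16 and 15.40, and corpuscle 14.94, 15.44, 15.33 and 15.95. Although no array of mesenchyme overlapped renal vesicle, the difference of 0.57 was under the size needed for a call.

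Rrm1, the large subunit, differed less among early groups. It lay between 13.54 and 14.94 (median 14.57) in mesenchyme, and at 14.53, 14.72, 13.73 and 14.58 in ureteric bud. Renal vesicle was 14.24, 14.48, 13.43, 14.32 and 14.33, S-shaped body 14.10, 14.53, 13.40 and 14.37, and tip 14.31, 14.49 and 14.36. Tips were above the ducts, at 13.96, 13.34 and 13.58. Tubules were 12.61 and 13.19, interstitium 14.32, 13.81, 13.43 and 13.78, and corpuscle 13.89, 13.90, 13.39 and 14.23. Both tubule arrays were below all the others, and Rrm1 fell there by 1.20 (SE 0.36, adjusted p = 0.0269) against S-shaped body.

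Of the G2/M drivers, Cdk1, the kinase that starts mitosis, was 14.44, 14.56, 14.01 and 14.49 in ureteric bud and ran from 11.67 to 14.50 (median 14.18) in mesenchyme. Renal vesicle was 13.76, 14.01, 13.21, 13.84 and 14.06, and S-shaped body 14.14, 13.72, 13.27 and 14.21. A single mesenchyme array gave the low end of that wide range. Tip was 13.60, 13.62 and 13.21, and duct 13.81, 11.60 and 12.68, which overlap. Interstitium was 14.30, 13.60, 13.23 and 12.64, corpuscle 13.36, 13.84, 13.34 and 13.76, and tubule 11.501 and 12.56, below every S-shaped body.

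Ccna2, the cyclin of S phase and G2, was lowest in duct and in 1 tubule array. Duct was 12.87, 11.22 and 12.31 against tip at 13.42, 13.43 and 13.14, which do not overlap, with a difference of 1.20 (SE 0.38, adjusted p = 0.279). Tubule was 11.35 and 13.40. Renal vesicle was 14.09, 14.63, 13.57, 13.69 and 13.65, mesenchyme between 13.25 and 13.96 (median 13.47) and ureteric bud 13.25, 13.69, 13.91 and 13.39. S-shaped body was 13.35, 13.44, 12.87 and 13.78 and corpuscle 13.58, 13.68, 13.43 and 13.79, so Ccna2 was no lower in corpuscle. Interstitium was 13.23, 13.85, 12.88 and 13.42.

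Among the mitosis genes, Mki67 separated the groups of the E15.5 comparison in full. Tip was 15.20, 15.03 and 14.89, and S-shaped body 15.12, 15.27, 14.83 and 15.18. Duct was 14.81, 13.34 and 13.97, interstitium 14.18, 14.70, 13.04 and 14.65, corpuscle 14.03, 14.31, 13.22 and 14.51, and tubule 13.09 and 13.81. All 7 arrays of the first pair lay above all 13 of the other 4, though the closest values were 14.83 and 14.81, and the former is the library labelled S-shaped body 3. Renal vesicle was 15.26, 15.502, 14.52, 15.65 and 15.17, ureteric bud 15.28, 14.52, 14.60 and 14.90, and mesenchyme ran from 13.76 to 15.19 (median 14.78).

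Bub1, a kinase of the spindle checkpoint, had the largest difference of the E15.5 comparison, 1.46, without a call (SE 0.53, adjusted p = 0.141). S-shaped body was 12.30, 12.21, 8.05 and 12.94, and corpuscle 9.35, 11.75, 6.80 and 11.86. The library labelled S-shaped body 3 is again apart. Without it and renal corpuscle 4 the difference was 2.18 and called. Duct was 11.59, 9.27 and 10.00 against tip at 12.62, 12.05 and 11.48, and tubule was 8.01 and 10.26. Mesenchyme, from 12.72 to 13.51 (median 12.91), was above all of these except 1 S-shaped body. Interstitium was 11.82, 11.92, 10.82 and 11.99, below every mesenchyme array. Ureteric bud was 12.72, 12.75, 13.30 and 12.58, and renal vesicle 12.58, 12.57, 13.39, 12.34 and 12.99.

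Mad2l1, its partner in the checkpoint, was 13.35, 13.44 and 12.24 in tip and 11.35, 11.11 and 11.78 in duct, which do not overlap. In corpuscle it was 10.86, 12.30, 7.13 and 12.92, and in S-shaped body 12.11, 13.97, 10.08 and 13.99. Each group holds an array far below its others. Mad2l1 ran from 12.93 to 13.93 in mesenchyme and was 13.96, 14.54, 14.02 and 14.19 in ureteric bud. In renal vesicle it was 13.80, 14.41, 13.37, 13.95 and 14.14. Interstitium was 11.95, 13.27, 11.18 and 12.48, and tubule 11.81 and 11.77. Cdc20, which starts the exit from mitosis, ran from 15.10 to 16.18 (median 15.28) in mesenchyme and was 15.67, 15.65, 15.47, 15.63 and 15.502 in renal vesicle. Tip was 14.65, 15.26 and 15.49 and duct 15.33, 13.64 and 14.30, and these overlap. Tubule was 13.19 and 15.69, with the second at the level of S-shaped body (15.67, 15.68, 15.10 and 15.88). Interstitium was 15.42, 15.14, 14.67 and 14.42, corpuscle 14.53, 15.31, 14.71 and 15.41 and ureteric bud 15.03, 15.39, 14.84 and 15.22. Cdc20 was called in none of the 10 comparisons with all arrays. Without the libraries labelled S-shaped body 3 and renal corpuscle 4 it fell in tubule against S-shaped body (-1.31, adjusted p = 0.0415).

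The inhibitors each had a pattern of their own. Cdkn1a was 12.95 and 13.16 in tubule and 11.47, 11.94, 12.34 and 12.48 in ureteric bud. Mesenchyme ran from 8.51 to 10.25 (median 9.30), renal vesicle was 7.99, 9.12, 10.09, 9.56 and 9.40, and tip 10.52, 10.04 and 9.47. The tubules were above every other array. Apart from them, the ureteric buds were above every array other than the library labelled S-shaped body 3, since S-shaped body was 10.10, 9.01, 11.90 and 8.29. Corpuscle was 9.96, 9.87, 9.89 and 10.63, duct 9.92, 10.19 and 10.74, and interstitium 10.17, 8.36, 8.27 and 8.47. High Cdkn1a came with a mean deviation of the other members of 0.52 in ureteric bud and of -0.97 in tubule.

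Cdkn2c was 7.41, 7.01, 9.11, 7.71 and 7.88 in renal vesicle and 12.09, 10.65, 10.95 and 11.39 in S-shaped body, with no overlap. Interstitium was 11.36, 11.55, 11.22 and 11.26, and corpuscle 11.69, 11.54, 12.01 and 8.61. The low corpuscle is the library labelled 4, and its Cdkn2c lay below every S-shaped body. Tip was 9.95, 10.46 and 10.48, duct 9.76, 8.47 and 9.68, and tubule 10.80 and 9.85. Mesenchyme ran from 8.83 to 10.43 (median 9.45) and ureteric bud was 8.97, 8.56, 7.92 and 8.96. Cdkn2c thus rose in S-shaped body of E15.5 against renal vesicle of E12.5, where no other member was called. Cdkn1b, which encodes p27, differed there by -0.29.

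**Figure D5:**
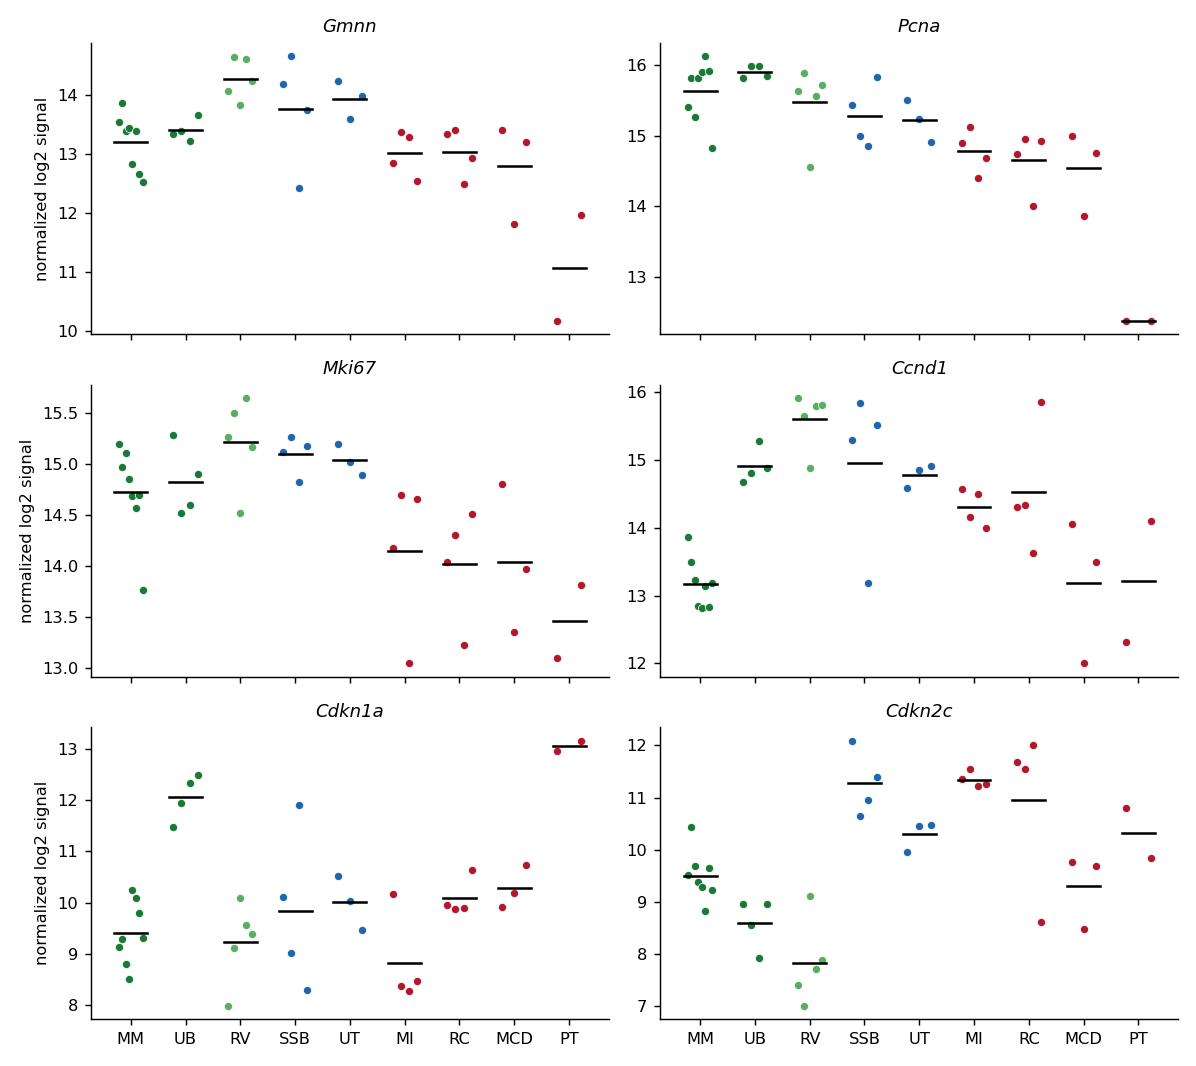
Log2 signal (y axis) in each array (points) of Gmnn, Pcna, Mki67, Ccnd1, Cdkn1a and Cdkn2c, by component: metanephric mesenchyme (MM), ureteric bud (UB), renal vesicle (RV), S-shaped body (SSB), ureteric tip (UT), medullary interstitium (MI), renal corpuscle (RC), medullary collecting duct (MCD) and proximal tubule (PT), with the mean as a line. Pcna is lowest in both tubule arrays (12.38 and 12.37), Cdkn1a is highest there, and Cdkn2c lies between 10.65 and 12.09 in S-shaped body.

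Other genes of the same processes, listed by function, were counted the same way. Of 40 other mitosis genes, 4 rose and none fell in the E15.5 comparison, against 0.796% and 0.821% of all genes. The 4 included Ncapg (1.63) of condensin, the chromosome motor Kif4 (1.53) and the spindle assembly factor Tpx2 (1.32). In early components and tip against differentiated ones 19 rose, against 6.75% of all genes. They were led by Nuf2 (1.90) and Spc24 (1.57) of the outer kinetochore and by Kif4 (1.73). In tubule against S-shaped body 8 fell, against 4.27% of all genes, with Spc24 at -3.04 and Kif23 at -2.86. In interstitium against mesenchyme 9 fell, against 6.82% of all genes, among them Kif20a (-2.00), Zwint (-1.90) and Espl1 (-1.81). Kif22 (1.27) and Cenpk (1.23) rose there, against 4.67% of all genes. The 40 genes had a median of 0.82 in the E15.5 comparison and 1.03 in tip against duct. In the latter none was called by limma and 17 were higher at an unadjusted p under 0.05.

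Of 32 other replication genes, Dbf4 (1.26), which activates the origin kinase, and Dut (1.01), which clears dUTP, rose in the E15.5 comparison, against 0.796% of all genes. In the comparison across days 15 rose, against 6.75% of all genes. They were led by Cdc45 (2.05) of the helicase, Pole (1.70) of the leading strand polymerase and the nucleoside kinase Dck (1.63). In tubule against S-shaped body 8 fell, against 4.27% of all genes, with Dck at -3.68 and Prim2, a primase subunit, at -2.44. Of 14 other regulators, E2f3 (1.29) rose in the E15.5 comparison and E2f3 (-3.01) and the checkpoint kinase Chek1 (-2.50) fell in tubule. Without the libraries labelled S-shaped body 3 and renal corpuscle 4, the E15.5 comparison called 17 other mitosis genes, 7 other replication genes and 4 other regulators higher. Of all genes, 2.77% were then higher.

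Of 13 genes of brakes and exit, Gadd45a (-3.73), a stress-induced growth arrest gene, and Btg1 (-1.42), an antiproliferative factor, fell in tubule against S-shaped body, where 4.27% of all genes were lower. No other was called there, with a median of -0.27. Gadd45a rose in S-shaped body against renal vesicle (2.76), and 4 of the 13 fell in renal vesicle against mesenchyme, where 7.98% of all genes did, among them Btg2 (-2.27), Ccng2 (-1.22) and Cdkn1c (-1.13). There 12 of the 13 were below 0, with a median of -1.06 against -0.06 over all genes. Cdkn1c, which encodes p57, fell in ureteric bud against mesenchyme (-1.73), as did Gas1 (-2.53).

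A second reading of the members came from the probe sets not used above, 52 for 29 genes with the inhibitors left out, which share the RNA of the same arrays. In the E15.5 comparison 46 of the 52 were above 0, with a median of 0.77 against 0.58 for the probe sets used of the same genes. In tubule against S-shaped body 43 were below 0, with a median of -1.19. Other probe sets of Rrm2 and Rrm1 gave 2.07 and 1.80 in the E15.5 comparison, against 0.60 and 0.69 for those used. For Tyms and Cenpe another probe set had the opposite sign in early components and tip against differentiated ones, so those calls depend on the probe set. With the probe set of largest variance, Top2a (0.70, adjusted p = 0.206 by limma) and Mcm5 (0.36, adjusted p = 0.513) lost their calls there. So did Ccnd1 in ureteric bud against mesenchyme, and Ccnd1, Mcm3 and Rrm2 in tubule. Calls of Ccnd1, Cdkn1b and Aurkb in interstitium and of Ccnd3 and Cdkn1b in renal vesicle, both against mesenchyme, were also lost. The probe sets used for Cdk4, Ccne1, Mcm2, Mcm3, Mcm5, Mcm6, Mcm7, Rrm2, Cdc25c, Aurkb, Bub1b and Cdc20 carry a suffix that marks possible hybridisation to other transcripts.

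Set beside the promoter letters printed above, the size of the difference was read for the 32 tested members other than inhibitors that have an entry. In early components and tip against differentiated ones, the 11 with a CHR and no E2F match had a median difference of 1.04 and 6 calls. The 7 with an E2F and no CHR match had 0.83 and 3 calls, and the 13 with neither had 0.71 and 5 calls. Cdk1, with both, had 0.93. In the E15.5 comparison the medians were 0.83, 0.56 and 0.68, and Cdk1 had 0.72. The order was not the same in tubule against S-shaped body. There the CHR class had a median of -0.99 and 1 call, and the E2F class -1.14 and 3 calls. Members with neither had -0.88 and 4 calls, and Cdk1 had -1.80. These are descriptions of few genes, with no test.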

How the data were processed

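The deposited values are signal intensities on a linear scale that the authors computed with Affymetrix GCOS (version not given), per the submitters' processing notes. In the deposited table the 2% trimmed mean of every array was 1500. Per the labels, RNA was amplified in 2 rounds and labelled with biotin. Of 45101 probe sets, 34945 (77.5%) name 1 gene, 932 several and 9160 none, and 64 are controls; only those with 1 gene were used.

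Signals were increased by 34.62, their 20th percentile, taken to log2 and quantile normalised. Probe sets above the pooled median (7.89) in at least 2 arrays were kept, with the highest mean chosen for each gene. In limma 3.58.1 (R 4.3.3) each component had its own mean in 1 model of the 37 arrays, with an intensity trend and 28 residual degrees of freedom, for 10 comparisons. The number of arrays limits the precision. The fit was tested on simulated data. Members and gene lists were chosen with earlier results of these data known. Values by array are given for the 2 members of each role with the largest called difference at E15.5, filled from tip against duct and then by level, for Mki67, and for Bub1 and Mad2l1, chosen after their values were seen. Every called member may be named, and of other lists the 3 largest calls in each direction. Replicate numbers follow accession order and are only names. The effect of other settings is given in the closing section.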

Additional observations from a re-analysis of the deposited data

Results flagged for a closer look

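Of 132 component groups of 4 to 10 arrays checked for a single array far from the rest, 17 had one, where chance gives about 1 in 20. Renal vesicle 3 was low for Ccnd1 (14.87, others 15.65 to 15.91), Pcna (14.55, others 15.57 to 15.89) and Rrm1 (13.43, others 14.24 to 14.48). Metanephric mesenchyme 8 was low for Cdk4 (14.59, others 15.34 to 15.83), Cdk1 (11.67, others 13.59 to 14.50), Mki67 (13.76, others up to 15.19) and the mean deviation of the G2/M drivers (-0.50, others 0.17 to 0.59), and high for Cdc20 (16.18, others 15.10 to 15.49). Mesenchyme 4 was low for Rrm2 (15.32, others 15.53 to 15.69).

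The library labelled S-shaped body 3 was low for Mcm7 (14.39, others 15.74 to 15.80) and for the mean deviation of the G1 genes (-0.75, others 0.00 to 0.15). The library labelled renal corpuscle 4 was high for Cdkn1a (10.63, others 9.87 to 9.96) and low for Cdkn2c (8.61, others 11.54 to 12.01). Ureteric bud 3 was low for Mcm7 (15.54, others 15.90 to 15.95), and ureteric bud 1 for the G1 genes (0.15, others 0.28 to 0.29). Medullary interstitium 1 was high for Cdkn1a (10.17, others 8.27 to 8.47) and for the inhibitors as a group (0.34, others -0.08 to -0.02).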

How the results depend on the processing

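Counts of called members are given by comparison, with the reported count first. Shares of all genes were counted only for the reported fit and without the libraries labelled S-shaped body 3 and renal corpuscle 4. In the E15.5 comparison 3 became 6 with an offset 4 times larger, with a stricter filter and without probe sets of shared sequence, 8 with the probe set of largest variance, 7 without interstitium, 15 with array weights and 14 without the libraries labelled S-shaped body 3 and renal corpuscle 4. Without those libraries, corpuscle against S-shaped body went from 0 to 8, tip against duct from 0 to 1 and tip against ureteric bud from 1 to 2. Array weights gave 6 for tubule against S-shaped body (13), 20 for tip against duct and 8 for tip against ureteric bud. Fitted to the 2 components alone, interstitium against mesenchyme gave 11 (6), tubule against S-shaped body 2 and tip against ureteric bud 9. Laser-captured mesenchyme alone gave 1 for interstitium and 1 for renal vesicle (5). The probe set of largest variance gave 4 for S-shaped body against renal vesicle (1), 1 for ureteric bud against mesenchyme (2) and 5 for tip against ureteric bud; scaling as deposited gave 3 for the last. The cause of these changes was not tested.

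Leaving out 1 array gave 3 to 13 calls in the E15.5 comparison, 12 to 24 in the comparison across days, 0 to 1 in tip against duct, 0 to 3 in corpuscle against S-shaped body, 3 to 26 in tubule against S-shaped body, 2 to 2 in ureteric bud against mesenchyme, 3 to 5 in renal vesicle against mesenchyme, 1 to 1 in S-shaped body against renal vesicle, 0 to 1 in tip against ureteric bud and 1 to 8 in interstitium against mesenchyme. With the probe set of largest variance, 4 differences that were called before or after the change reversed: Cenpe in the comparison across days (-0.12, adjusted p = 0.867), and Rrm1 in interstitium against mesenchyme (2.06, adjusted p = 0.00916), S-shaped body against renal vesicle (3.04, adjusted p = 0.000884) and tip against ureteric bud (2.90, adjusted p = 0.00488), all by limma. Over single members and settings, 153 called values were no longer called, 1 reversed and 1423 kept direction and call.

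Arrays of different components with the same number in their titles did not deviate together (84 pairs, median correlation 0.01, 9 over 0.1). With that number as a replicate block there was 1 call for ureteric bud against mesenchyme and 0 for tip against ureteric bud, and 3, 19, 13 and 6 in the E15.5 comparison, the comparison across days, tubule and interstitium. Scaling as deposited, without quantile normalisation, moved the median of all genes by -0.15 in the comparison across days, 0.19 in interstitium against mesenchyme, -0.11 in tubule, 0.13 in S-shaped body against renal vesicle and 0.39 in tip against ureteric bud; members above 0 were then 38, 13, 4, 10 and 17 of 44. The number of arrays, 2 for tubule, limits these comparisons.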
